A study of Mus musculus with 4 samples.

Results

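The genes described here are 10 immediate early genes, Egr1, Egr2, Egr3, Nr4a1, Nr4a2, Ier2, Ier3, Ier5, Myc and Srf, taken as all probe sets whose only gene symbol in the platform annotation is one of them. They account for 10 of 18193 genes and 20 of 45101 probe sets on the array, and all 20 probe sets are described. RNA was measured on 4 Affymetrix expression arrays in primary epidermal keratinocytes, the epithelial cells of the skin, from newborn mice of strain C57BL/6. The groups were p38a-KO cells 4 h after ultraviolet B (UVB) at 75 mJ/cm2, p38a-KO cells without irradiation, wild-type (WT) cells 4 h after the same dose, and WT cells without irradiation, with 1 array in each. p38a is p38alpha, the product of Mapk14 and a kinase switched on by cell stress. Which part of the gene was deleted, what drove the deletion and how many animals were pooled was not given in the sources used here. These comparisons ask what UVB does to these cells and whether its effect differs in the absence of p38alpha.

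Immediate early genes are switched on within minutes of a stimulus without new protein synthesis, because the factors that drive them are already in the cell and are activated by phosphorylation. Many are controlled by SRF, which binds the CArG box and works with partners that ERK, JNK and p38 kinases phosphorylate, or by CREB, which binds the cyclic AMP response element (CRE). Their mRNAs are mostly short-lived, so their level tracks recent transcription, and in keratinocytes they respond to growth factors, wounding and ultraviolet light.

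The signal is a linear MAS5 intensity. The floor was 24.9 units, the level that splits all probe sets evenly by their mean over the 4 arrays, and lower values were raised to it before any ratio. Each gene was represented by its brightest probe set, and all 10 genes were among the 11379 whose mean reached the floor. Most genes had lower signal after UVB, with a median log2 difference of -0.82 in KO-labelled cells and -0.70 in WT cells. After median centring these medians were 0.28 and 0.32, and after quantile normalization 0.06 and 0.05. Scaling to the spike-in control probe sets left them at -0.93 and -0.71. Directions below therefore refer to the deposited values, and values after centring or quantile normalization are given where they change a direction or a call. For centring, signals were divided by 0.707 and 1.55 in irradiated and unirradiated KO-labelled cells, and by 0.660 and 1.38 in WT cells. These divisors came from the medians of the probe sets whose mean reached the floor. They have the same order as the medians of the whole arrays, but not the same ratios. The whole-array medians were 18.7 and 34.5 units in irradiated and unirradiated KO-labelled cells, against 18.7 and 30.3 units in WT cells. The brightest Mapk14 probe set showed no loss in the p38a-KO samples, at 647 and 1449 units in irradiated and unirradiated KO-labelled cells, against 293 and 985 units in WT cells, so the samples are called KO-labelled. Since the deleted part is not known, the probe set may lie outside it, and its signal does not test the loss of p38alpha. All 10 measured keratinocyte markers were at or above the floor on every array. The summed signal of 9 fibroblast markers was 4245 and 6402 units in irradiated and unirradiated KO-labelled cells, against 2503 and 3266 units in WT cells, and that of 8 melanocyte markers 5637 and 8694 units against 4846 and 6179 units, and the part of these cells in the results below was not tested. All 9 fibroblast and all 8 melanocyte markers were at or above the floor in unirradiated cells of each genotype, and no marker was listed at 0. In cultures measured in bulk, fewer cells of a type and less RNA per cell cannot be told apart.

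After UVB, Egr1 was higher in each genotype, Myc, Egr2, Egr3 and Srf were lower by at least 2-fold in each, and Ier3, Ier5 and Nr4a1 were higher in WT but lower in KO-labelled cells. In KO-labelled cells 0 of 10 genes were at least 2-fold higher, where 0.167% of all genes tested were, and 4 of 10 were at least 2-fold lower, against 39.3% of all genes. In WT cells 0 of 10 were at least 2-fold higher, against 0.58%, and the same 4 of 10 at least 2-fold lower, against 34.8%. In an additive limma model with terms for irradiation and genotype, 1 of 10 rose and 5 of 10 fell over both genotypes, against 0.703% and 69.4% of the 11379 genes. For 5 of 10 genes both irradiated arrays lay below both unirradiated arrays, against 79.6% of all genes, and for 0 of 10 above them, against 1.42%. The median log2 response of the 10 genes was -0.64 in KO-labelled and -0.53 in WT cells. Each group has 1 array, so no response within a genotype has a test. The residual of the model is the disagreement between the genotypes on 1 degree of freedom, so its p-values do not measure a spread between cultures.

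**Figure D1:**
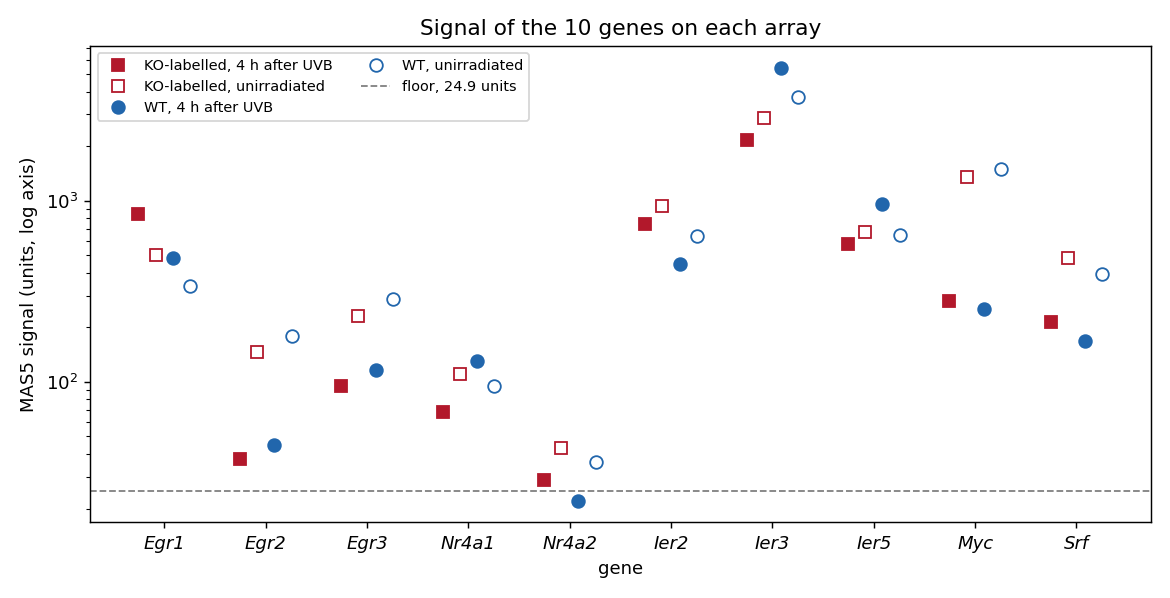
MAS5 signal in units, on a log axis, of the brightest probe set of each gene, with squares for KO-labelled and circles for WT cells, filled 4 h after UVB and open without irradiation, and a dashed line at the floor of 24.9 units. Myc, Egr2, Egr3, Srf and Nr4a2 have both irradiated arrays below both unirradiated arrays, and for Nr4a2 the irradiated WT value is below the floor.

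The EGR proteins are zinc finger transcription factors that bind a GC-rich site, and Egr1 is the member best known for its response to stress and to ultraviolet light. Egr1 had 845 units after UVB and 503 units without it in KO-labelled cells, and 480.4 units after UVB and 339 units without it in WT cells. It was thus higher after UVB within each genotype, by 1.68-fold in KO-labelled and 1.42-fold in WT cells, although irradiated WT cells lay below unirradiated KO-labelled cells. Over both genotypes Egr1 rose by 0.62 in log2 signal (SE 0.13, limma adjusted p = 0.00203), the only 1 of the 10 genes to rise. Its response was above that of 99.6% of all genes in KO-labelled cells and 98.3% in WT cells. The rise was 1.40 with quantile normalization and 1.72 with median centring, and without genotype in the model it did not pass (limma adjusted p = 0.14).

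Egr2, which directs myelination in Schwann cells and restrains T cells, went the other way. It had 37.8 units after UVB and 146 units without it in KO-labelled cells, and 44.6 units after UVB and 179 units without it in WT cells. Its other probe set read 26.9 and 172 units in KO-labelled cells and 30.3 and 165 units in WT cells, in the same order. Irradiated and unirradiated arrays did not overlap on either probe set. By its brighter probe set Egr2 was 3.85-fold lower in KO-labelled and 4.00-fold lower in WT cells and fell by 1.97 in log2 signal over both genotypes (SE 0.21, limma adjusted p = 4.1e-05). Only 8.43% of all genes in KO-labelled cells and 7.27% in WT cells had a lower response, and the fall passed with quantile normalization and with centring too, at -0.91 and -0.87.

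Egr3, an EGR factor of muscle spindles and lymphocytes, had 95.4 units after UVB and 231 units without it in KO-labelled cells, and 117 units after UVB and 286 units without it in WT cells. Its dimmer probe set had 45.9 and 61.9 units in KO-labelled cells and 35.8 and 46.4 units in WT cells. The fold was thus 2.42 lower in KO-labelled and 2.45 lower in WT cells by the brighter probe set, with smaller log2 differences of -0.43 and -0.37 by the dimmer one. Egr3 fell by 1.28 in log2 signal (SE 0.17, limma adjusted p = 0.000132). After quantile normalization its value was -0.22 (limma adjusted p = 0.33) and after centring -0.18 (limma adjusted p = 0.39). As deposited 26.2% of all genes in KO-labelled cells and 23.8% in WT cells had a lower response than Egr3.

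Srf, the MADS-box factor that drives many genes of this class, was measured by a pair of probe sets. The brighter, whose identifier marks it as shared with other transcripts, had 215 units after UVB and 480.3 units without it in KO-labelled cells, and 169 units after UVB and 395 units without it in WT cells. The other had 124 and 286 units in KO-labelled cells and 170.4 and 242 units in WT cells. All irradiated values lay below all unirradiated ones on each probe set. By the brighter, Srf was 2.23-fold lower in KO-labelled and 2.34-fold lower in WT cells. By the other, the log2 differences were -1.21 in KO-labelled and -0.50 in WT cells. By the brighter, Srf fell by 1.19 in log2 signal (SE 0.14, limma adjusted p = 7.78e-05). Its value was -0.24 (limma adjusted p = 0.188) with quantile normalization and -0.09 (limma adjusted p = 0.594) with centring.

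**Figure D2:**
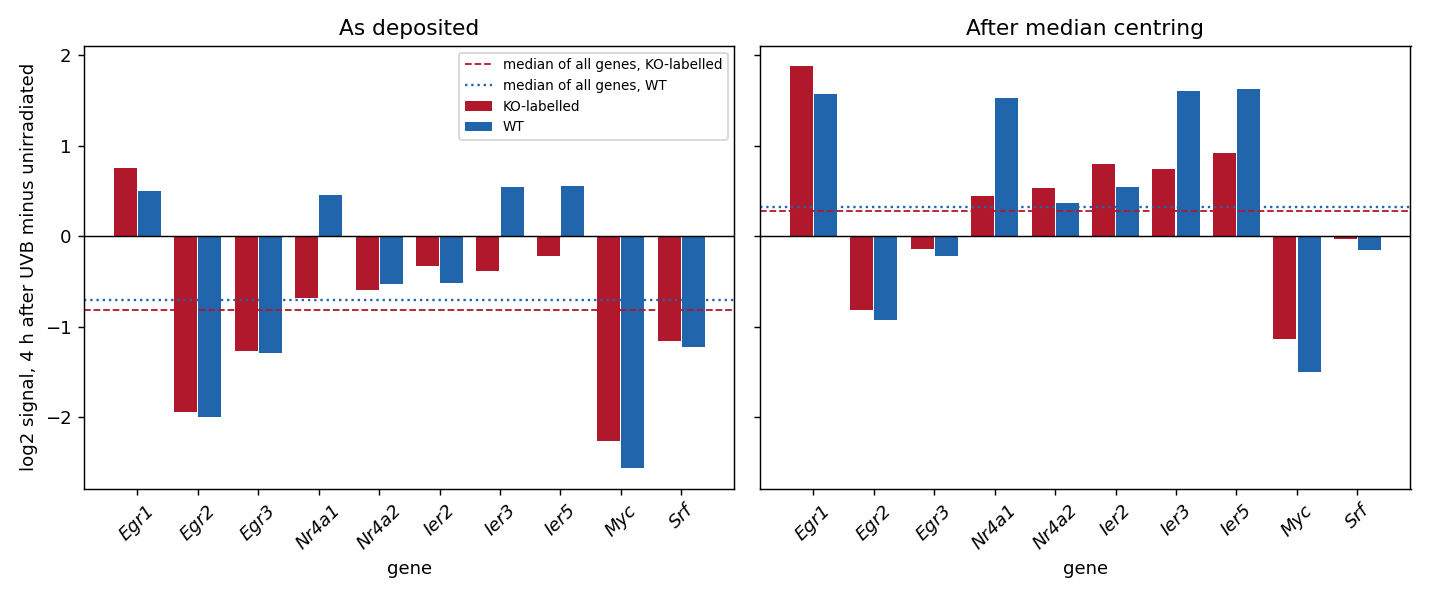
log2 signal 4 h after UVB minus that without irradiation for each gene, in KO-labelled (red) and WT cells (blue), as deposited on the left and after median centring on the right, with lines at the median of all genes tested. Egr1 is above 0 and Myc and Egr2 are below 0 in both genotypes on each side, whereas Nr4a1, Ier3 and Ier5 lie below 0 in KO-labelled cells only as deposited, and on each side have the higher bar in WT cells.

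RefSeq promoter windows of 6 of the 10 genes were searched. They ran from 250 bases before to 50 bases after an annotated start site on build GRCm38.p6. No window of Egr1, Egr3, Ier2 or Myc was searched, so motifs near these genes, among them the rising Egr1, were not tested. The motifs searched on both strands were the CArG box, the CRE TGACGTCA, its core TGACG, the AP-1 site TGANTCA, the EGR site GCGNGGGCG and TATAAA. The core lies within the CRE, so each CRE also counts as a core. Windows of Egr2 and Srf are shown because these are the 2 of the 6 genes with a CArG box in a window. Capitals mark the CArG boxes, and the lines run from 5′ to 3′ along the gene's strand.
Egr2, chr10:67537619-67537918, plus strand: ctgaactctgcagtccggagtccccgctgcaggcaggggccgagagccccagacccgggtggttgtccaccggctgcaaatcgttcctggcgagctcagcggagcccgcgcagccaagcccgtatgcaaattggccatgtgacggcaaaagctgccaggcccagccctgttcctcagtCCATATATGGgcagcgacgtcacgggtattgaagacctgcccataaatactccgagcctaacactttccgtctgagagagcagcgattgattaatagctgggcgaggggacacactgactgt
Srf, chr17:46556113-46556412, minus strand: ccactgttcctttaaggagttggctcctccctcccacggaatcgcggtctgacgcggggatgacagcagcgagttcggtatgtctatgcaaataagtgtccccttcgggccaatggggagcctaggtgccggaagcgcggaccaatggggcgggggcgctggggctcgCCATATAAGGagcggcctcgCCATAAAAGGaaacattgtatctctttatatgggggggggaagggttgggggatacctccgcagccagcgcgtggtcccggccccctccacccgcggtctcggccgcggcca

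The Egr2 window holds 1 CArG box, which starts 72 bases before the start site, and the Srf window holds 2, at 82 and 62 bases before it. RefSeq lists 5 start sites for Egr2, and 4 of the 5 windows hold a CArG box, 3 of them the box shown. A CArG box is found in 1.63% of all 32851 promoter windows. The Srf window also has an EGR site at 101 bases before the start site, a motif found in 5.55% of windows. A match of letters in these windows is a description, and binding of SRF or EGR factors was not measured.

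NR4A1 and NR4A2 are orphan nuclear receptors, which bind DNA without a known ligand, and in melanocytes the Nr4a genes are known to be induced by cyclic AMP and ultraviolet light. Nr4a1 had 68.3 units after UVB and 110.1 units without it in KO-labelled cells, against 130.5 units after UVB and 94.9 units without it in WT cells. Irradiated WT cells thus had the highest and irradiated KO-labelled cells the lowest of the 4 values. The response was 1.61-fold lower in KO-labelled cells and 1.37-fold higher in WT cells. Over both genotypes the value was -0.12 (SE 0.27, limma adjusted p = 0.717), and after quantile normalization it was 0.95 (limma adjusted p = 0.0195) and after centring 0.98 (limma adjusted p = 0.0128), with a response above 0 in each genotype.

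Nr4a2, which is needed for dopamine neurons, was close to the floor. Its brightest probe set had 28.6 units after UVB and 43.3 units without it in KO-labelled cells, and 22.1 units after UVB and 36.1 units without it in WT cells. It was 1.51-fold lower after UVB in KO-labelled cells and at least 1.45-fold lower in WT cells, where the irradiated value was below the floor. The difference did not pass over both genotypes (-0.57, SE 0.28, limma adjusted p = 0.0972), and the value was above 0 after quantile normalization and centring, at 0.18 and 0.45. Of the 6 Nr4a2 probe sets, 4 had a mean signal below the floor. The second brightest had 18.2 and 36.1 units in irradiated and unirradiated KO-labelled cells, against 32.4 and 35.0 units in WT cells. Of the other 4, one had 19.2 and 13.3 units in irradiated and unirradiated KO-labelled cells, against 30.5 and 33.0 units in WT cells, and one had 5.40 and 46.4 units against 20.9 and 21.7 units. The last pair lay below the floor on every array, between 1.70 and 16.4 units.

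The promoter windows of both receptors are shown with the CRE core TGACG, or CGTCA where it lies on the opposite strand, in capitals, because each holds 4 of them.
Nr4a1, chr15:101266596-101266895, plus strand: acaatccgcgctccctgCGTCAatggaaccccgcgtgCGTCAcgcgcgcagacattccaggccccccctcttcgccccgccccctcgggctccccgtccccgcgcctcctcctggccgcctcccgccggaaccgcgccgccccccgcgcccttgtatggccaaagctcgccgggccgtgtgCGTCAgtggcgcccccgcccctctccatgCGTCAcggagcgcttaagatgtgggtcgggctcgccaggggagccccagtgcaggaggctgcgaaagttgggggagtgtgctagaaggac
Nr4a2, chr2:57123954-57124253, minus strand: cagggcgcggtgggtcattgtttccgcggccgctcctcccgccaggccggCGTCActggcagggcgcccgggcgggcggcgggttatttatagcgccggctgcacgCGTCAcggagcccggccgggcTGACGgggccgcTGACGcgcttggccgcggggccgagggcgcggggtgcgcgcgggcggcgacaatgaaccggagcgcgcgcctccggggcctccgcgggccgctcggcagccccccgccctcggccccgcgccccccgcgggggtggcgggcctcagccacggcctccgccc

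In the Nr4a1 window the cores start 233, 213, 69 and 40 bases before the start site, and in the Nr4a2 window 200, 144, 123 and 111 bases before it. At least 1 core is present in 20.8% of all windows. Each window also holds an EGR site, at 60 bases before the start site in Nr4a1 and 74 bases before it in Nr4a2, and neither holds a CArG box or a complete CRE. The WT responses of the 2 genes were on opposite sides of 0 as deposited. The core was also found in the windows shown for Egr2, with 2 matches, and Srf, with 1. The windows of Ier3 and Ier5 held 0 matches to the 6 motifs.

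The IER genes are named for immediate early response and share little else. IER2 is a nuclear protein, IER3 is a small stress protein linked to cell survival and to NF-kB and ERK signalling, and IER5 is linked to heat shock factor and to recovery from DNA damage. Ier3 had 2178 units after UVB and 2853 units without it in KO-labelled cells, against 5440.4 units after UVB and 3748 units without it in WT cells. It was 1.31-fold lower after UVB in KO-labelled cells and 1.45-fold higher in WT cells. Irradiated WT cells had the highest and irradiated KO-labelled cells the lowest value, the same order at the extremes as for Nr4a1.

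Ier5 had 579 units after UVB and 672 units without it in KO-labelled cells, against 956 units after UVB and 651 units without it in WT cells. The response was 1.16-fold lower in KO-labelled and 1.47-fold higher in WT cells. Of its other probe sets, the second was nearly equal in irradiated and unirradiated WT cells, and the dimmest was lower after UVB. The second had 74.5 and 102 units in KO-labelled cells and 142.4 and 141.3 units in WT cells, and the dimmest 8.68 and 47.3 units in KO-labelled cells and 32.8 and 63.5 units in WT cells. All 3 probe sets had a lower irradiated value in KO-labelled than in WT cells.

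Over both genotypes neither Ier3 (0.07, SE 0.18, limma adjusted p = 0.717) nor Ier5 (0.17, SE 0.17, limma adjusted p = 0.394) passed. After quantile normalization both rose, Ier3 by 0.39 (limma adjusted p = 0.0401) and Ier5 by 0.86 (limma adjusted p = 0.0013), and after centring by 1.17 and 1.27. In WT cells 98.5% of all genes had a lower response than Ier3 and 98.5% than Ier5, and 98.1% than Nr4a1. In KO-labelled cells these shares were 76.9% for Ier3, 86.0% for Ier5 and 58.6% for Nr4a1.

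Ier2 had 745 units after UVB and 938 units without it in KO-labelled cells, and 446 units after UVB and 642 units without it in WT cells. It was lower after UVB in each genotype, by 1.26-fold in KO-labelled and 1.44-fold in WT cells, and both KO-labelled arrays lay above both WT arrays. Ier2 fell by 0.43 in log2 signal over both genotypes (SE 0.12, limma adjusted p = 0.0102, or 0.0587 without the trend and 0.256 without genotype in the model), a smaller difference than that of the median gene in each genotype. Its value was 0.29 after quantile normalization (limma adjusted p = 0.0568) and 0.67 after centring (limma adjusted p = 0.000944).

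Myc, the growth-promoting bHLH factor that keeps basal keratinocytes dividing, had the largest response of the 10 genes as deposited. It had 281 units after UVB and 1348 units without it in KO-labelled cells, and 254 units after UVB and 1504 units without it in WT cells, with no overlap. It was 4.80-fold lower in KO-labelled and 5.93-fold lower in WT cells and fell by 2.42 in log2 signal (SE 0.13, limma adjusted p = 2.75e-06). A lower response was seen for 4.35% of all genes in KO-labelled and 2.14% in WT cells. The fall passed with quantile normalization and with centring too, at -1.64 and -1.32, and the value with spike-in scaling, which gave no usable p, was -2.48.

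**Figure D3:**
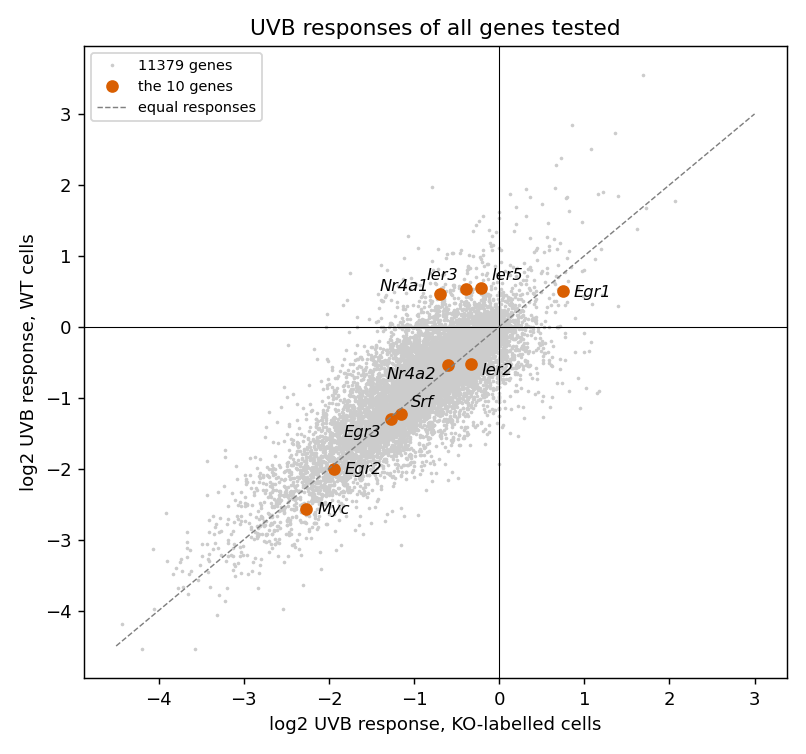
log2 UVB response of the 11379 genes tested in KO-labelled cells (horizontal axis) and in WT cells (vertical axis), in grey, with the 10 genes in orange and a dashed line at equal responses. Nr4a1, Ier3 and Ier5 lie in the corner with a response below 0 in KO-labelled and above 0 in WT cells, which holds 6.6% of all genes, and Myc, Egr2, Egr3 and Srf lie close to the dashed line.

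By the brightest probe sets, the UVB responses of Nr4a1, Ier3 and Ier5 were lower in KO-labelled than in WT cells. Those of the other genes differed less. The difference of the log2 responses, KO-labelled minus WT, was -1.15 for Nr4a1, -0.93 for Ier3 and -0.77 for Ier5. It lay between -0.06 for Nr4a2, where 1 value was raised to the floor, and 0.31 for Myc among the other 7. This depended on the probe set. By the second probe sets the difference was -0.70 for Srf, -0.46 for Ier5, -0.42 for Nr4a2, -0.23 for Egr2 and -0.06 for Egr3. Past 2-fold, 1 of 10 genes, Nr4a1, had the lower response in KO-labelled cells, against 2.94% of all genes, and 0 of 10 a higher one, against 1.34%. Responses of opposite sign were seen for 3 of 10 genes, and for 9.79% of all genes. With quantile normalization the differences were -1.03, -0.68 and -0.56 for Nr4a1, Ier3 and Ier5, and with centring -1.09, -0.87 and -0.71, although with these scalings all 3 responses were above 0 in each genotype. The difference of the responses has no test, since the 4 arrays leave no residual for it.

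**Figure D4:**
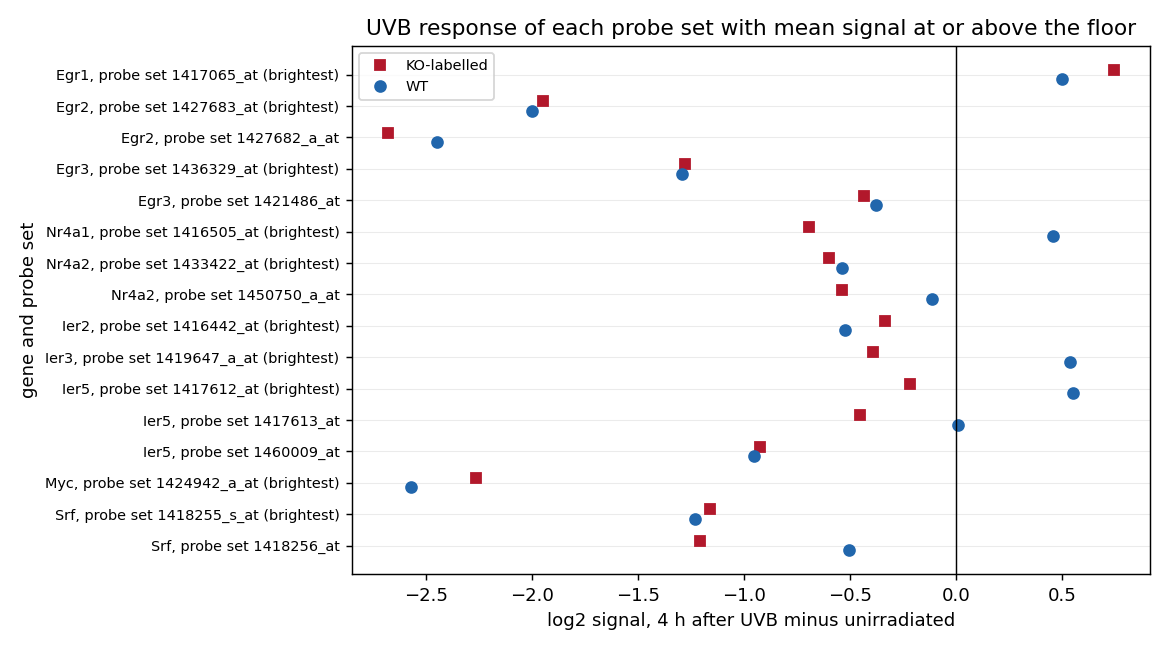
log2 signal 4 h after UVB minus that without irradiation for the 16 probe sets whose mean reached the floor, in KO-labelled (squares) and WT cells (circles). Of the 16, 11 were below 0 in both genotypes, 1 above 0 in both and 4 on opposite sides, and the 3 Ier5 probe sets spread most in WT cells, from -0.95 to 0.55.

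Between the genotypes, Ier3 was 2.50-fold lower in KO-labelled than in WT cells after UVB, the 1 of 10 genes past 2-fold, against 1.47% of all genes lower and 1.41% higher by that much, with 0 of 10 higher. Nr4a1 was 1.91-fold lower and Ier5 1.65-fold lower after UVB, whereas Egr1 was 1.76-fold higher and Ier2 1.67-fold higher. Without irradiation 0 of 10 genes were 2-fold higher or lower, against 1.63% and 0.729% of all genes. There Egr1 was 1.48-fold and Ier2 1.46-fold higher in KO-labelled cells, Ier3 1.31-fold lower, and Nr4a1 and Ier5 were 1.16-fold and 1.03-fold higher. The median gene was itself higher in KO-labelled cells, by 0.05 after UVB and 0.16 without irradiation on the log2 scale.

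Over both conditions, Egr1 (0.69, SE 0.13, limma adjusted p = 0.036) and Ier2 (0.64, SE 0.12, limma adjusted p = 0.036) were higher in KO-labelled cells, so that 2 of 10 genes passed as higher, against 0.967% of all genes, and 0 of 10 as lower, against 0.642%. Ier3 was at -0.86 (SE 0.18, limma adjusted p = 0.0523). With quantile normalization Ier2 passed (0.51, limma adjusted p = 0.048), Ier3 passed as lower (-0.88, limma adjusted p = 0.00985), and Egr1 did not pass (0.56, limma adjusted p = 0.0504). With median centring Egr1 and Ier2 did not pass (limma adjusted p = 0.0588 and 0.06) and Ier3 did (-0.99, limma adjusted p = 0.0152). Neither Egr1 nor Ier2 passed without the trend (limma adjusted p = 0.301), with the mean over probe sets (limma adjusted p = 0.118) or with genotype as the only factor (limma adjusted p = 1). The fibroblast and melanocyte marker sums given above were also higher in KO-labelled cells in each condition, and their part in these differences was not tested.

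**Figure D5:**
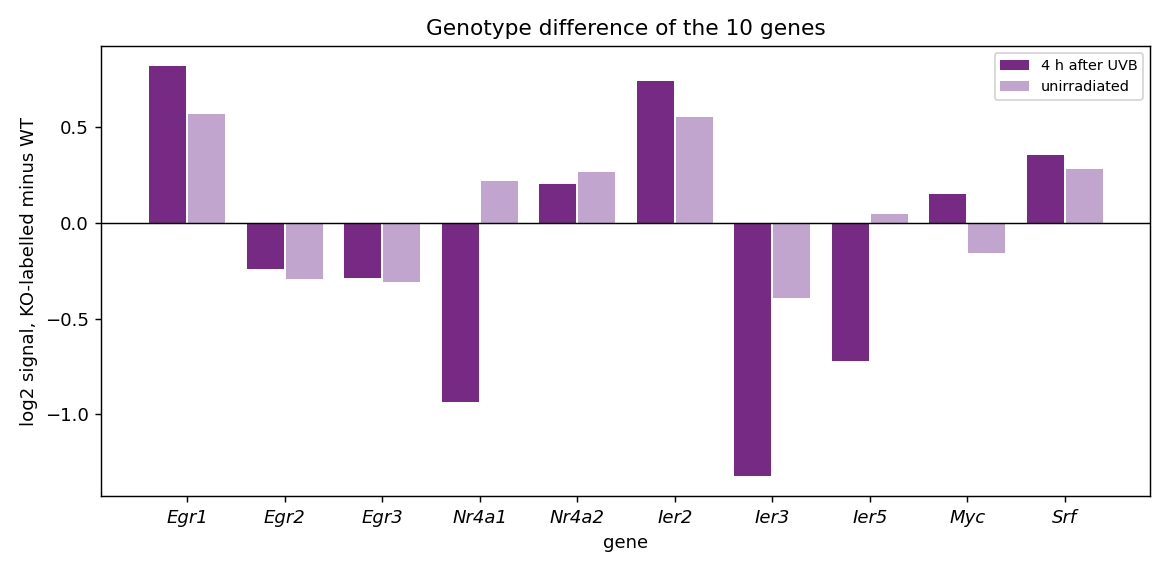
log2 signal in KO-labelled minus WT cells for each gene, 4 h after UVB (dark) and without irradiation (light). Egr1 and Ier2 are above 0 in both conditions, and Ier3, Nr4a1 and Ier5 reach -1.32, -0.93 and -0.72 after UVB.

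Other immediate early genes also went both ways. Of 35 listed, from the AP-1, KLF, DUSP and other families, 32 were tested. Of these, 6 rose and 13 fell by limma, or 16 and 8 with quantile normalization and 18 and 4 with centring. Of all genes, 0.703% rose and 69.4% fell as deposited, 20.2% rose and 20% fell with quantile normalization, and 36.6% rose and 14.9% fell with centring. Their median log2 response was -0.51 in KO-labelled and 0.05 in WT cells, and past 2-fold the response was lower in KO-labelled cells for 9 of 32, against 2.94% of all genes, and higher for 0 of 32, against 1.34%. Averaged over the genotypes, the 2 largest responses were falls, and the largest rise was that of Fos. Fos was 3.32-fold higher in KO-labelled and 3.18-fold higher in WT cells. Fosl2, an AP-1 subunit, had 168 and 1520.2 units in irradiated and unirradiated KO-labelled cells, against 163 and 1534 units in WT cells, 9.07-fold and 9.42-fold lower. Klf10, a zinc finger factor induced by TGF-beta, was 3.34-fold and 3.93-fold lower.

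A list of SRF cofactors and EGR corepressors also held the CRE-binding factors Creb1 and Crem. Of 9 tested, 8 fell and 0 rose, against 69.4% and 0.703% of all genes. With quantile normalization 6 fell and 0 rose, against 20% and 20.2%, and with centring 6 fell and 1 rose, against 14.9% and 36.6%. Creb1 was among those that fell as deposited (-2.30 in log2 signal), and Crem did not pass (-0.26, limma adjusted p = 0.483). Mrtfb, a coactivator that carries actin signals to SRF, had 153 and 844 units in irradiated and unirradiated KO-labelled cells, against 98.5 and 735 units in WT cells, and fell by 2.68 in log2 signal (SE 0.16, limma adjusted p = 3.28e-06). Nab2, a corepressor of the EGR factors and itself an EGR target, was lower by at least 7.54-fold in KO-labelled and by at least 4.82-fold in WT cells, with both irradiated values below the floor. Of the cytoskeletal genes driven by SRF, 7 of 14 fell and 1 rose as deposited, against 69.4% and 0.703% of all genes. Quantile normalization gave 2 falls and 4 rises, against 20% and 20.2%, and centring 1 and 13, against 14.9% and 36.6%. Among them Fhl2, a LIM-domain cofactor, was 3.59-fold and 2.53-fold lower, and Vcl, which encodes vinculin, was 1.60-fold and 1.67-fold lower in KO-labelled and WT cells, and higher with centring (0.39).

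Of 12 genes of the MYC network 11 fell and 0 rose as deposited, where 69.4% and 0.703% of all genes did, with medians of -1.01 in KO-labelled and -0.91 in WT cells. With quantile normalization 1 rose and 1 fell, against 20.2% and 20% of all genes. Max, the obligate partner of MYC, had 28.6 and 161 units in irradiated and unirradiated KO-labelled cells, against 43.6 and 86.9 units in WT cells, and was 5.64-fold and 1.99-fold lower. Max did not pass with quantile normalization (-0.73, limma adjusted p = 0.119) or centring (-0.65, limma adjusted p = 0.13). Mga, a large MAX-binding repressor, was 4.51-fold and 3.57-fold lower. Of 17 MYC target genes, chiefly of ribosome production and growth, 14 fell and 0 rose, against 69.4% and 0.703% of all genes, while 9 fell with quantile normalization, against 20%, and 14 rose with centring, against 36.6%. Their medians were -0.66 and -0.35, nearer 0 than the medians of all genes, and the largest responses averaged over the genotypes were those of the nucleolar genes Nop58, 2.16-fold and 2.06-fold lower, and Nolc1, 2.46-fold and 1.77-fold lower. With centring their values were 0.02 and 0.04 and did not pass. All 7 genes of MYC turnover and control fell as deposited, against 69.4% of all genes, and 3 fell with quantile normalization or centring, against 20% and 14.9%. The largest responses averaged over the genotypes were those of the F-box genes Skp2, 6.19-fold and 8.36-fold lower, and Fbxl14, 4.44-fold and 4.77-fold lower, in KO-labelled and WT cells.

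Of the retinoid X receptors, the partners of the NR4A receptors, Rxra fell to 82.1 units in irradiated KO-labelled cells, against 398 units without irradiation, and to 60.1 units in irradiated WT cells, against 349 units without irradiation. With quantile normalization and centring another Rxra probe set was the brightest, and its values of 0.05 and 0.13 did not pass. Rxrb had 168 and 211 units in irradiated and unirradiated KO-labelled cells, against 267 and 196 units in WT cells, the same order as Ier5. Its UVB effect did not pass as deposited (0.06) and did with quantile normalization (1.05) and centring (1.16). Of 8 factors that act on AU-rich mRNAs such as those of immediate early genes, 2 rose and 6 fell, against 0.703% and 69.4% of all genes, with 5 rising and 1 falling under centring, against 36.6% and 14.9%. Zfp36l2, which promotes decay of such mRNAs, was 6.67-fold lower in KO-labelled and 4.66-fold lower in WT cells, and the RNA-binding protein gene Tial1 was 2.36-fold and 2.28-fold lower. Tial1 did not pass with quantile normalization (-0.31, limma adjusted p = 0.0729) or centring (-0.11, limma adjusted p = 0.482).

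For each of the 10 genes, the genes with the most similar pattern over the 4 arrays were found among 9239 others at or above the floor on every array, by the root mean square difference of centred log2 signal, and the nearest is given here. Ier5 was nearest to Sprr1b, a cornified envelope precursor of keratinocytes, at 0.01, which had 3138 and 3602 units in irradiated and unirradiated KO-labelled cells, against 5259 and 3503 units in WT cells. Nr4a1 was nearest to Trib1, a pseudokinase gene, at 0.03, and Ier3 to Vamp2, a vesicle fusion gene, at the widest distance of 0.10. Myc was nearest to Fem1b, Egr2 to Zkscan6, Egr3 to Camsap3, and Srf to Top2a, which encodes the topoisomerase of dividing cells, all within 0.03. Egr1 was nearest to Samd5 at 0.06, Ier2 to Spr at 0.02 and Nr4a2 to Chd1l at 0.01. Within the 10 genes, Nr4a1 and Ier5 were nearest each other, at 0.17, as were Nr4a2 and Ier2, at 0.23, Egr2 and Myc, at 0.27, and Egr3 and Srf, at 0.31. With 4 arrays many genes share a pattern, and these distances are a description of these arrays.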

How the data were processed

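The labels put 1 array in each of 4 groups. Per the submitters' processing notes, the authors used MAS5, and the deposited intensity is linear. Its version and scaling target were not given in the sources used here. Probe sets were named from the platform annotation. Those with exactly 1 symbol were used (34945), of which 34741 were found by gene ID in a RefSeq table of GRCm38.p6, with 0 symbols changed. Each gene took the probe set with the highest mean signal, values were raised to a floor of 24.9 units, and genes with a mean below it were left out.

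Groups were compared by log2 ratios, with 2-fold as the threshold. An additive model was fitted to all 11379 genes with limma 3.58.1 in R 4.3.3, with an intensity trend, 1 residual and 8.132 prior degrees of freedom, and Benjamini-Hochberg adjustment at 0.05. An exact permutation test of 2 against 2 arrays cannot go below p = 0.333 and was not used. On simulated data for the UVB effect with 11379 genes, 61 of 100 genes changed by 1 in log2 were called, 97 of 100 changed by 2, and 3 others. Only 100 genes were changed at each size there, whereas 69.4% of all genes fell in the data. These shares may therefore differ for the data. The number of arrays limits the precision, and there are no counts behind the values. The members and lists were chosen with earlier results of these data known. Named genes are the 10 members, the nearest genes by pattern, the 2 largest UVB responses of each list, and Mapk14. Fos, Creb1, Crem, Trp63 and the keratin genes were named outside this rule. The alternatives were 3 scalings, 2 floors, 2 fold thresholds, 2 choices of probe set and 2 limma settings. Protein sequences were not used here.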

Additional observations from a re-analysis of the deposited data

Results flagged for a closer look

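The UVB response of 3 genes had opposite signs in the genotypes as deposited, with 1 array in each group, and the difference was not tested. The difference of the log2 responses, KO-labelled minus WT, was -1.15 for Nr4a1 (-0.69 in KO-labelled and 0.46 in WT cells), -0.93 for Ier3 (-0.39 and 0.54) and -0.77 for Ier5 (-0.22 and 0.55). Among all genes tested, 9.79% had responses of opposite sign, and 6.6% were above 0 in WT and below 0 in KO-labelled cells. By the second probe set of Ier5 the responses were -0.45 and 0.01, and by the dimmest both were below 0, at -0.92 and -0.95, the first with the irradiated value raised to the floor.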

How the results depend on the processing

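The number of the 10 genes past each threshold depended mainly on the scaling. With quantile normalization 1 gene was at least 2-fold higher and 1 lower after UVB in KO-labelled cells, 3 higher and 1 lower in WT cells, and in limma 4 rose and 2 fell after UVB, and 1 was higher and 1 lower by genotype. With median centring these counts were 1 and 1 in KO-labelled cells, 4 and 1 in WT cells, 5 and 2 in limma after UVB, and 0 and 1 by genotype, and 2 genes were past 2-fold lower in KO-labelled than in WT cells after UVB. With spike-in scaling 2 genes had a response past 2-fold lower in KO-labelled cells. Limma's prior degrees of freedom with that scaling were infinite, so its p-values and the counts from them are not used. The floor at the 25th percentile gave 1 gene lower by genotype. The floor at the 75th percentile left 7 genes, with 2 lower after UVB in KO-labelled cells, 0 with a lower response there and 1 lower by genotype. At 1.5-fold, 1 gene was higher after UVB in KO-labelled cells, and Nr4a1 and Nr4a2, at 1.61-fold and 1.51-fold lower, joined those lower there. Between the genotypes, 2 were higher and 3 lower in KO-labelled than in WT cells after UVB, and 3 had a lower response in KO-labelled cells. At 3-fold, 2 were lower after UVB in each genotype, and 0 were lower in KO-labelled cells after UVB or in response. The mean over probe sets left 9 genes, with 2 lower after UVB in WT cells and 0 higher by genotype, and leaving out shared probe sets gave 1 lower by genotype. Limma without the trend gave 0 higher by genotype, and with only the tested factor 0 rose after UVB and 0 were higher by genotype.

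Signs of the limma values changed for the UVB effect of Nr4a1 (0.95 and 0.98), Nr4a2 (0.18 and 0.45) and Ier2 (0.29 and 0.67) with quantile normalization and centring, and of Ier5 with the mean over probe sets (-0.33). For the genotype effect they changed for Myc with spike-in scaling (0.030), Egr3 with the mean over probe sets (0.044) and Srf without shared probe sets (-0.11). The cause was not tested. Nr4a2 is limited by signal near the floor. No paired analysis was possible because each group has 1 array and the labels give no replicate numbers.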

Other observations

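The keratinocyte factor gene Trp63, used here only as a marker and named after its values were seen, had 236 and 1931 units in irradiated and unirradiated KO-labelled cells, against 150.5 and 1676 units in WT cells, and fell by 3.26 in log2 signal (SE 0.14, limma adjusted p = 2.37e-06). It had the largest response of the 10 keratinocyte markers tested, of which 6 fell and 0 rose, against 69.4% and 0.703% of all genes. The keratin genes Krt5 (-0.08), Krt14 (-0.07), Krt15 (0.03) and Krt10 (-0.05) did not pass. Krt1 passed as lower (-0.47, limma adjusted p = 0.0308), with responses of -0.07 in KO-labelled and -0.86 in WT cells.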
